A study of Mus musculus with 2 samples.

Results

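The unfolded protein response genes examined here were Ern1, Eif2ak3, Xbp1, Atf4, Creb3l3, Ddit3, Atf3, Hspa5, Herpud1 and Trib3. These 10 genes were found by their symbols among the 32245 gene symbols of the deposited tables, and their levels were compared across liver cell classes and between WT and N-LKO. They occupied 11 rows, because Ddit3 was listed under 2 overlapping gene models on the same strand, and the second model held 0 UMIs in both libraries. Single-cell RNA-seq had been performed on livers of mice on a C57BL6 background after 16 weeks on diet, with 1 library per group. WT was the control genotype. In N-LKO, albumin-Cre acted on a loxP-flanked allele of Nus1, the gene encoding NgBR, so that the deletion was aimed at hepatocytes. The state of the allele in the other liver cells was not measured here. The N-LKO library was made from liver plus tumor tissue and the WT library from liver. Both groups are titled as fed a high-fat diet (HFD) and labelled under treatment as fed WD, a Western diet. The mice were male, and how many were pooled into each library was not given in the sources used here. Genotype, tumor tissue and library cannot be told apart as the source of any difference, and with 1 library per group no test across animals was possible.

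The unfolded protein response is the signaling network by which cells adjust to misfolded protein in the endoplasmic reticulum (ER). The sensor IRE1, encoded by Ern1, splices the mRNA of the transcription factor XBP1, while the kinase PERK, encoded by Eif2ak3, phosphorylates eIF2 alpha and thereby favors translation of ATF4. ATF4 in turn acts on Atf3, Trib3 and Ddit3, which encodes the proapoptotic factor CHOP. Hepatocytes secrete large amounts of glycoprotein and also carry CREB3L3 (CREBH), a membrane-bound factor of lipid and acute-phase gene control. Splicing of Xbp1, phosphorylation and cleavage of these proteins leave no trace in 3′ UMI counts, so the values below are transcript levels alone.

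All 10 are protein-coding genes, placed here by GENCODE M21 on GRCm38 because the tables give gene IDs without coordinates. Ern1 lies at chr11:106394650-106487852 (minus strand), Eif2ak3 at chr6:70844515-70905245 (plus), Xbp1 at chr11:5520659-5525893 (plus), Atf4 at chr15:80255184-80257541 (plus) and Creb3l3 at chr10:81084324-81098874 (minus). Ddit3 lies at chr10:127290774-127296288 (plus), Atf3 at chr1:191170296-191218039 (minus), Hspa5 at chr2:34771970-34777547 (plus), Herpud1 at chr8:94386438-94395377 (plus) and Trib3 at chr2:152337422-152344032 (minus).

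The promoters of the 3 members that held a motif of this response are shown because Hspa5, Herpud1 and Atf3 were also among the genes that stood higher in hepatocyte-like cells of N-LKO. Each sequence is the 250 bases before the RefSeq transcription start (GRCm38.p6), read 5′ to 3′ on the strand of the gene, with the matched motifs in capitals. The regions are chr2:34771840-34772089 on the plus strand for Hspa5, chr8:94386179-94386428 on the plus strand for Herpud1 and chr1:191183334-191183583 on the minus strand for Atf3. For Hspa5 the GENCODE M21 gene begins inside this window, and for Atf3 the RefSeq start lies inside the GENCODE gene span.
Hspa5: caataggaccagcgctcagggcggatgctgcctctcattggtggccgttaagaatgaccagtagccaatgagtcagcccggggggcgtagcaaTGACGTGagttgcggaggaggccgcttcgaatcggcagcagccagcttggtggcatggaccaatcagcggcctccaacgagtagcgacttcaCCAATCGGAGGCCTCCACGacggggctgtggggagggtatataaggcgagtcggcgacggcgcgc
Herpud1: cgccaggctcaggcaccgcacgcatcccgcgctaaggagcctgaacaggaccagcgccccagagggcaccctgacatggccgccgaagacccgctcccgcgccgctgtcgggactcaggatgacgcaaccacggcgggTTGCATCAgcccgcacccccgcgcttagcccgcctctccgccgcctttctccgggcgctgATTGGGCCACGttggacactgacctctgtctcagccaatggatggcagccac
Atf3: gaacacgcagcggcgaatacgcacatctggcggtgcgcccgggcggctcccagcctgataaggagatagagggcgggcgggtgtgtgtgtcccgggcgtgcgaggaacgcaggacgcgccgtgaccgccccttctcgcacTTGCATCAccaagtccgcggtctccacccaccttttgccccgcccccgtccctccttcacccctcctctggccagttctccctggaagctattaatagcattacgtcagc

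In the Hspa5 promoter the capitals mark the ATF6-type ER stress element (ERSE, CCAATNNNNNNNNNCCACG), 65 to 47 bases before the start, and an XBP1-type element (UPRE, TGACGTG), 157 to 151 bases before it. In the Herpud1 promoter they mark the second form of the ER stress element (ERSE-II, which reads ATTGG, any base and CCACG), 52 to 42 bases before the start, and a CEBP-ATF response element (CARE, TGATGNAA) on the reverse strand, 112 to 105 bases before it. In the Atf3 promoter they mark a CARE on the reverse strand, 110 to 103 bases before the start. Both strands were searched and no matches overlapped. Of 32851 mouse promoters of the same length, 0.113% held an ERSE, 0.0304% an ERSE-II, 1.65% a UPRE and 3.45% a CARE. All 10 members matched a promoter, 11 promoters in total, and those of the other members held none of these letters.

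The deposited tables held 85522287 UMIs over 100171 barcodes for WT and 87575064 UMIs over 90147 barcodes for N-LKO. After filters on depth, mitochondrial share and doublets, 18434 WT and 19851 N-LKO cells remained, with medians of 1401 and 1454 UMIs, and 122 barcodes occurred in both libraries. Clusters were named from marker genes, giving 12 classes with levels in both libraries and 8 with at least 200 cells in each, between which the genotypes were compared. Cells of a cluster led by Eda, Tmem45b and Pdzrn3 stayed unnamed, although hepatocyte markers came closest (score 0.172, against the 0.2 required). They formed 0.114% of WT cells and 12.3% of N-LKO cells. Clusters led by monocyte genes (4.44% and 12.0%) and clusters with markers of 2 unrelated types (4.24% and 7.61%) were also left out of the classes. All 12 hepatocyte markers were detected in the hepatocyte-like class, with summed levels of 43711 CPM (UMIs scaled to the same library total) in WT against 41298 CPM in N-LKO. Nus1 itself stood at 73.0 CPM in WT against 39.2 CPM in N-LKO hepatocyte-like cells (log2 ratio −0.89, −1.13 to −0.67). It was also lower in T-like cells (−0.84, −1.29 to −0.40), in which albumin-Cre is not known to act, and 3′ UMIs need not come from the deleted part, so Nus1 is a weak check of the deletion.

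Barcodes under 500 UMIs, which were taken as a measure of RNA set free from broken cells, also differed between the libraries. The deposited tables held no barcode under 326 UMIs in WT or 377 UMIs in N-LKO. This measure therefore rests on barcodes between these limits and 500 UMIs, and whether they hold cells was not tested. In this free RNA Hspa5 stood at 254.5 CPM in WT against 641 CPM in N-LKO, Atf3 at 16.4 and 43.8 CPM, and Ern1 at 22.8 and 57.1 CPM. Herpud1 stood at 138 and 196 CPM, Ddit3 at 15.4 and 19.7 CPM, and Xbp1 at 104 and 96.1 CPM, and for Ddit3 and Xbp1 the intervals of the ratio included no difference. From markers of other cell types, free RNA was estimated to supply 79.5% of the hepatocyte-like UMIs in WT and 34.3% in N-LKO, and between 26.9% and 72.9% in the other classes. Each level below therefore mixes the RNA of the cell with RNA from its surroundings, in shares that differed between the libraries.

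In hepatocyte-like cells (9949 WT and 2086 N-LKO) the genes higher in N-LKO were Hspa5, Herpud1, Atf3 and Ddit3, which are ER chaperone, ER degradation and stress transcription factor genes. A gene was called higher or lower where the N-LKO over WT ratio was at least 1.5-fold and its 95% exact binomial interval left out 1, among genes with at least 5 CPM in 1 library. All intervals here cover counting error only, not the spread between animals. By this rule 4 of the 9 expressed members were higher and 0 lower, where 13.5% of all 9971 expressed genes were higher and 8.64% lower. The median log2 ratio of the 9 members was 0.37, beside 0.03 over all expressed genes. As set out further on, Hspa5 and Herpud1 were no longer called when the cells of the unnamed cluster were counted as hepatocytes, whereas Atf3 and Ddit3 still were.

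The 2 ER sensors did not pass the rule. Ern1 gave 1452 UMIs in WT and 292 in N-LKO, or 86.5 and 63.9 CPM (log2 ratio −0.43, −0.62 to −0.25). Eif2ak3 gave 19.4 CPM in WT against 24.3 CPM in N-LKO (log2 ratio 0.33, 0.00 to 0.64). With the unnamed cluster added, both were called higher, Ern1 at 1.04 and Eif2ak3 at 1.22, whereas with free RNA subtracted both were called lower, Ern1 at −1.87 and Eif2ak3 at −0.70. Their direction in N-LKO hepatocytes therefore depends on which cells are counted and on free RNA.

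Among the transcription factors, Atf3, a stress-induced repressor and activator of the ATF family, stood apart most. Its level was 24.7 CPM in WT against 80.3 CPM in N-LKO, with a log2 ratio of 1.70 (1.497 to 1.91) that lay above the ratio of 98.1% of expressed genes. It was the only member called under every alternative tried in this class, including a 2-fold limit. Ddit3, encoding CHOP, was detected with 213 UMIs in WT and 104 in N-LKO, or 12.7 and 22.8 CPM (log2 ratio 0.85, 0.49 to 1.19). In WT that level hardly differed from the 12.3 CPM that free RNA alone was estimated to supply. Xbp1 stood at 145.5 CPM in WT against 188 CPM in N-LKO (log2 ratio 0.37, 0.26 to 0.49), a difference beyond counting error but under 1.5-fold. Atf4 stood at 60.3 and 47.5 CPM (−0.34, −0.56 to −0.13) and Creb3l3 at 129 and 111 CPM (−0.22, −0.36 to −0.08), neither of which passed the rule. Atf4 is controlled chiefly at translation, which these data do not measure, and its level in WT was no higher than the free RNA estimate of 62.5 CPM.

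Among the effectors, Hspa5, which encodes the ER chaperone BiP, gave 7987 UMIs in WT and 3886 in N-LKO. Its level rose from 476 CPM to 850.4 CPM, with a log2 ratio of 0.84 (0.78 to 0.89) that lay above the ratio of 92.4% of expressed genes. Herpud1, a membrane component of ER-associated degradation, stood at 277 CPM in WT against 439.9 CPM in N-LKO (0.67, 0.59 to 0.74). Trib3, a pseudokinase induced by ATF4 and CHOP, was near the limit of detection, with 13 UMIs in WT and 10 in N-LKO. At 0.77 and 2.19 CPM it fell under the limit of 5 CPM and no direction was read from it.

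**Figure D1:**
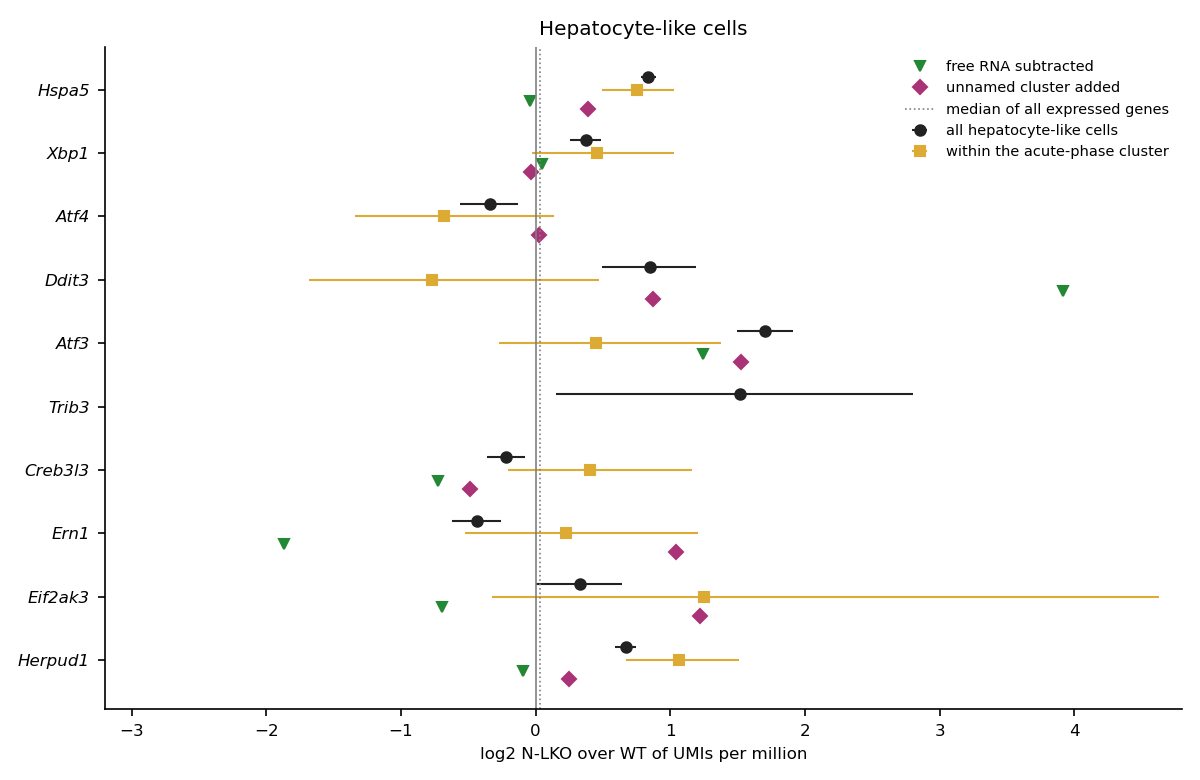
Log2 ratio of CPM, N-LKO over WT, for each gene in hepatocyte-like cells. Black points are all hepatocyte-like cells and yellow squares the cells of the acute-phase cluster, with 95% exact counting intervals. Green triangles follow subtraction of free RNA and purple diamonds the addition of the unnamed cluster, and the dotted line is the median of all expressed genes (0.03). Hspa5 and Herpud1 lie at 0.84 and 0.67 in black and at −0.043 and −0.090 in green, and Ern1 moves from −0.43 in black to 1.04 in purple. Trib3, under 5 CPM, is drawn for all cells alone.

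The values of Hspa5 and Herpud1 moved with free RNA. When it was subtracted at the share estimated in each library, Hspa5 went to −0.043 and Herpud1 to −0.090, Atf3 stayed higher at 1.24, and no Atf4 UMIs remained in WT. When it was subtracted at 34.3% in both libraries, Hspa5 and Herpud1 both stood at 0.65 and the same 4 genes were called higher. In hepatocyte-like cells the summed markers of the other 11 classes ranged from 10.6 to 347 CPM in WT and from 13.1 to 369 CPM in N-LKO. Their markers at 0 included Ly6g in WT, and Ly6g, Slc4a1, Hand2, Tnfrsf17 and Iglv1 in N-LKO. The part of other cell types in these ratios was not tested.

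The hepatocyte-like cells of the libraries came mostly from different clusters. In WT, 8341 of them fell in a cluster led by Slco1a1 and Mup12, 1171 in a cluster poor in Malat1 (a nuclear RNA), 311 in one rich in it and 126 in a cluster led by the acute-phase genes Saa1, Saa2 and Orm2. In N-LKO, 1959 were in this acute-phase cluster and 99 in the first. Within the acute-phase cluster, Hspa5 stood at 506 CPM in WT against 855 CPM in N-LKO (log2 ratio 0.75, 0.50 to 1.03). Herpud1 stood there at 207 and 438 CPM (1.06, 0.67 to 1.51), so both kept their difference among cells of 1 cluster. Free RNA was not subtracted in these comparisons of clusters. Within the first cluster, with 99 cells in N-LKO, they also differed, by 0.70 (0.44 to 0.93) for Hspa5 and 0.85 (0.52 to 1.15) for Herpud1. The unnamed cluster of N-LKO was also set against the Malat1-rich cluster of WT. There Herpud1 was lower in N-LKO (−1.11, −1.30 to −0.92) and Hspa5 stood at 0.27 (0.07 to 0.48), under 1.5-fold.

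For Ddit3 and Atf3 no difference between the libraries was detectable within the acute-phase cluster, where the 126 WT cells left wide intervals. Inside the acute-phase cluster Ddit3 stood at 37.3 CPM in WT, from 9 UMIs, and 23.0 CPM in N-LKO (−0.77, −1.68 to 0.47), and Atf3 at 58.1 and 81.8 CPM (0.45, −0.27 to 1.38). Among WT cells alone, the acute-phase cluster exceeded the Slco1a1 cluster for Ddit3 by 1.80 (0.58 to 2.69) and for Atf3 by 1.41 (0.47 to 2.13). Hspa5 did not show this, at 506 CPM in the acute-phase cluster and 508 CPM in the Slco1a1 cluster of WT. The Malat1-rich cluster of WT also exceeded the Slco1a1 cluster, for Ddit3 by 1.37 (0.55 to 2.04) and for Atf3 by 1.69 (1.20 to 2.13). Higher levels of these 2 genes were therefore not particular to the acute-phase cluster. Because the clustering used these cells, the contrasts between clusters are given as a description.

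The sensors Ern1 and Eif2ak3 differed among clusters in the order of their Malat1 content. In WT, Ern1 stood at 284 CPM in the Malat1-rich cluster, 84.7 CPM in the Slco1a1 cluster and 21.8 CPM in the Malat1-poor cluster. Eif2ak3 stood at 67.8, 18.6 and 7.03 CPM in the same order. The unnamed cluster of N-LKO, with 19687 CPM of Malat1 against 4469 CPM in the acute-phase cluster, carried 291 CPM of Ern1 and 66.0 CPM of Eif2ak3, beside 65.3 and 24.6 CPM in the acute-phase cluster. Hspa5, Xbp1 and Herpud1 stood lower in the unnamed cluster, at 402, 96.1 and 223 CPM against 855, 191 and 438 CPM. In WT, however, Herpud1 had the order of the sensors, at 481 CPM in the Malat1-rich, 284 CPM in the Slco1a1 and 125 CPM in the Malat1-poor cluster. Atf3 (72.6, 22.6 and 18.3 CPM) and Creb3l3 (142, 134 and 80.1 CPM) had this order too. The lower step of Atf3 and the upper step of Creb3l3 were within counting error. The part of nuclear RNA in their levels was not tested.

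**Figure D2:**
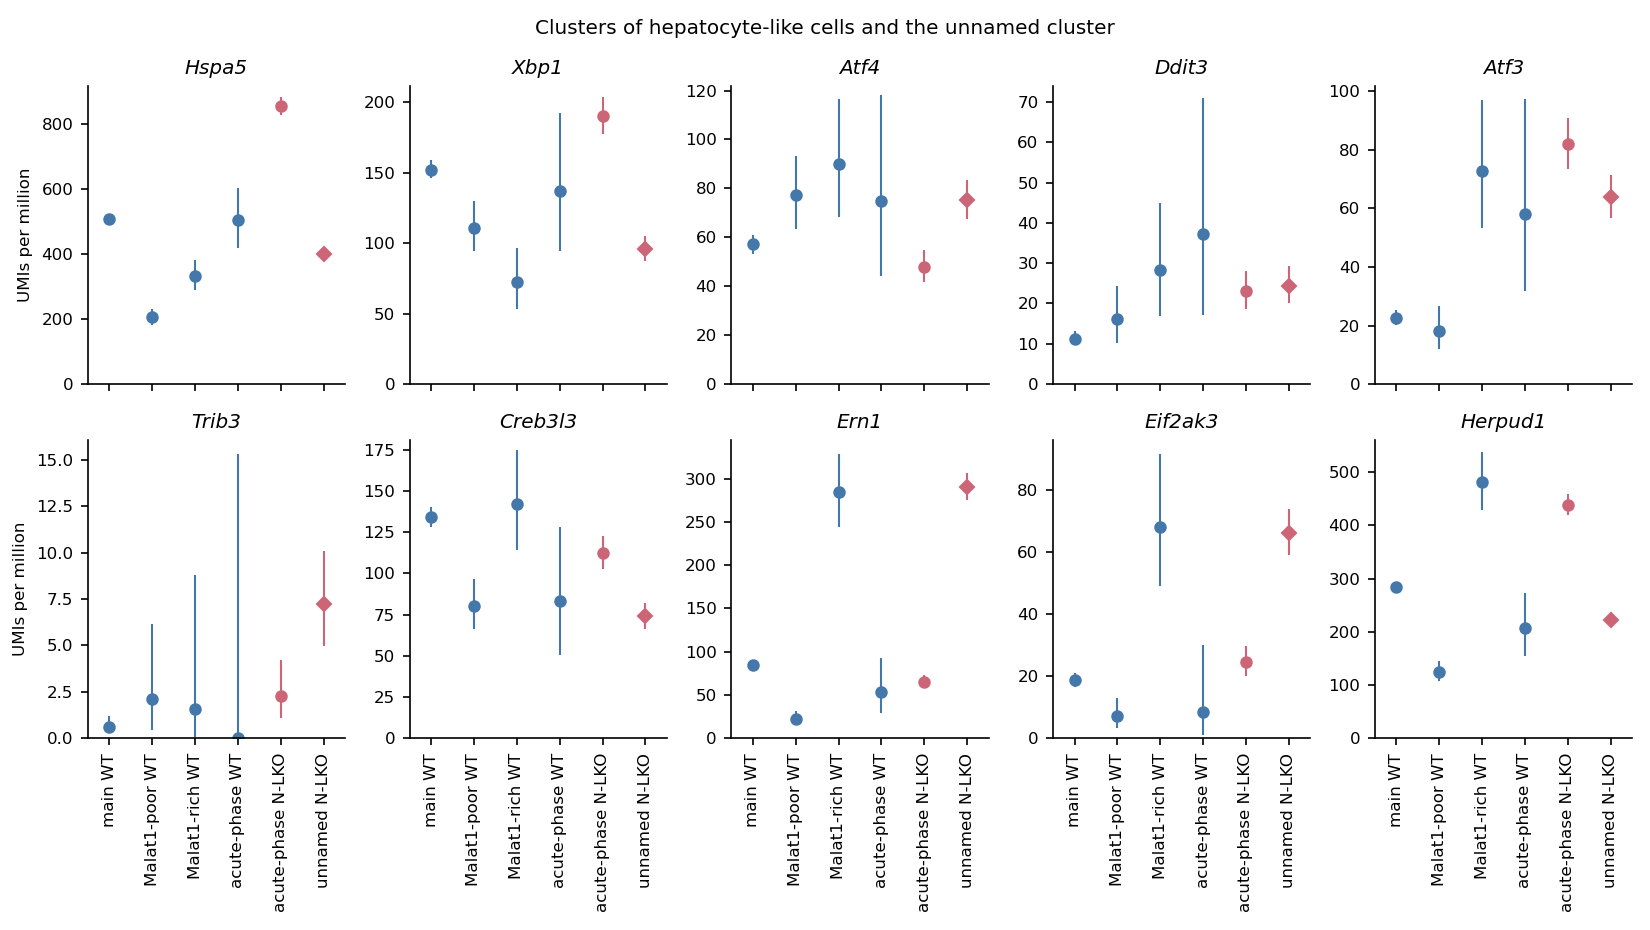
CPM of each gene in the clusters of hepatocyte-like cells and in the unnamed cluster (diamonds), blue for WT and red for N-LKO, with 95% exact Poisson intervals, each panel with its own axis from 0. The main cluster is the one led by Slco1a1, and Malat1-poor and Malat1-rich are clusters of WT. Hspa5 is highest in the acute-phase cells of N-LKO (855 CPM), while Ern1 is highest in the Malat1-rich cluster of WT (284 CPM) and the unnamed cluster of N-LKO (291 CPM).

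Across the 12 classes the members had different peaks. Plasma-like cells, which secrete antibody, held the most Hspa5, 1489 CPM in WT against 1684 CPM in N-LKO, 2.69 and 1.98 times the next class. They also held the most Xbp1, a factor required for plasma cell formation, with 973 CPM in WT against 1056 CPM in N-LKO, 5.47 and 5.60 times the next class. Below them, the next neighbors in the order of Hspa5 in WT (macrophage-like, 554 CPM, and erythroid-like, 477 CPM) did not differ beyond counting error. In N-LKO the second class for both genes was hepatocyte-like, at 850.4 CPM of Hspa5 and 188 CPM of Xbp1, each beyond counting error above the endothelial-like class (731 and 161 CPM). With the unnamed cluster added to it, the class stood at 623 CPM of Hspa5 and 142 CPM of Xbp1, below the endothelial-like class.

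Ern1 was also highest in plasma-like cells, 196 CPM in WT against 188 CPM in N-LKO. The lead over the next class went beyond counting error in WT (plasmacytoid dendritic-like, 99.8 CPM) but not in N-LKO (T-like, 163 CPM). Eif2ak3 reached 125 and 124 CPM in plasma-like cells, a lead over neutrophil-like cells (81.6 CPM) that was within counting error in WT. Hepatocyte-like cells held the least Eif2ak3 but for the 52 erythroid-like cells in WT, and the least of all classes in N-LKO, although in both libraries the neighbor in the order did not differ beyond counting error.

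Herpud1 had its highest level in hepatocyte-like cells. In WT the 277 CPM of this class and the 255 CPM of plasma-like cells did not differ beyond counting error, and in N-LKO the 439.9 CPM of hepatocyte-like cells was 1.36 times that of plasma-like cells (323 CPM), a lead that shrank to 330 CPM against 323 CPM with the unnamed cluster added. Creb3l3 was highest in hepatocyte-like cells by 2.47 times over B-like cells in WT and 2.25 times over T-like cells in N-LKO. After thinning each cell to 1000 UMIs, a Creb3l3 UMI was found in 11.8% of hepatocyte-like cells in WT and in 9.40% in N-LKO (18.9% and 20.6% before thinning). In macrophage-like cells, which are not known to express the gene, 3.03% and 2.14% did. Their median depths were 1519 and 1929 UMIs in hepatocyte-like cells and 1391 and 1516 UMIs in macrophage-like cells. Outside hepatocyte-like cells the level mostly lay close to that estimated for free RNA, for example 27.6 against 29.6 CPM in WT macrophage-like cells, and was read as background. In N-LKO it stood above the estimate in hepatic stellate-like (36.2 against 25.4 CPM) and T-like cells (49.2 against 36.0 CPM), where this reading is less sure.

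Atf3 was highest in cholangiocyte-like cells, 232 CPM in WT against 246 CPM in N-LKO, followed by macrophage-like cells at 96.4 and 136 CPM. Ddit3 and Atf4 showed no class that stood above its neighbor beyond counting error at the top of the order in either library. Ddit3 ranged from 5.62 CPM (dendritic-like, 2 UMIs) to 40.8 CPM in WT and from 15.7 to 42.9 CPM in N-LKO. Atf4 ranged from 40.8 to 89.0 CPM in WT and from 47.5 to 91.1 CPM in N-LKO. Trib3 reached at most 4.75 CPM in WT against 5.72 CPM in N-LKO among the classes.

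**Figure D3:**
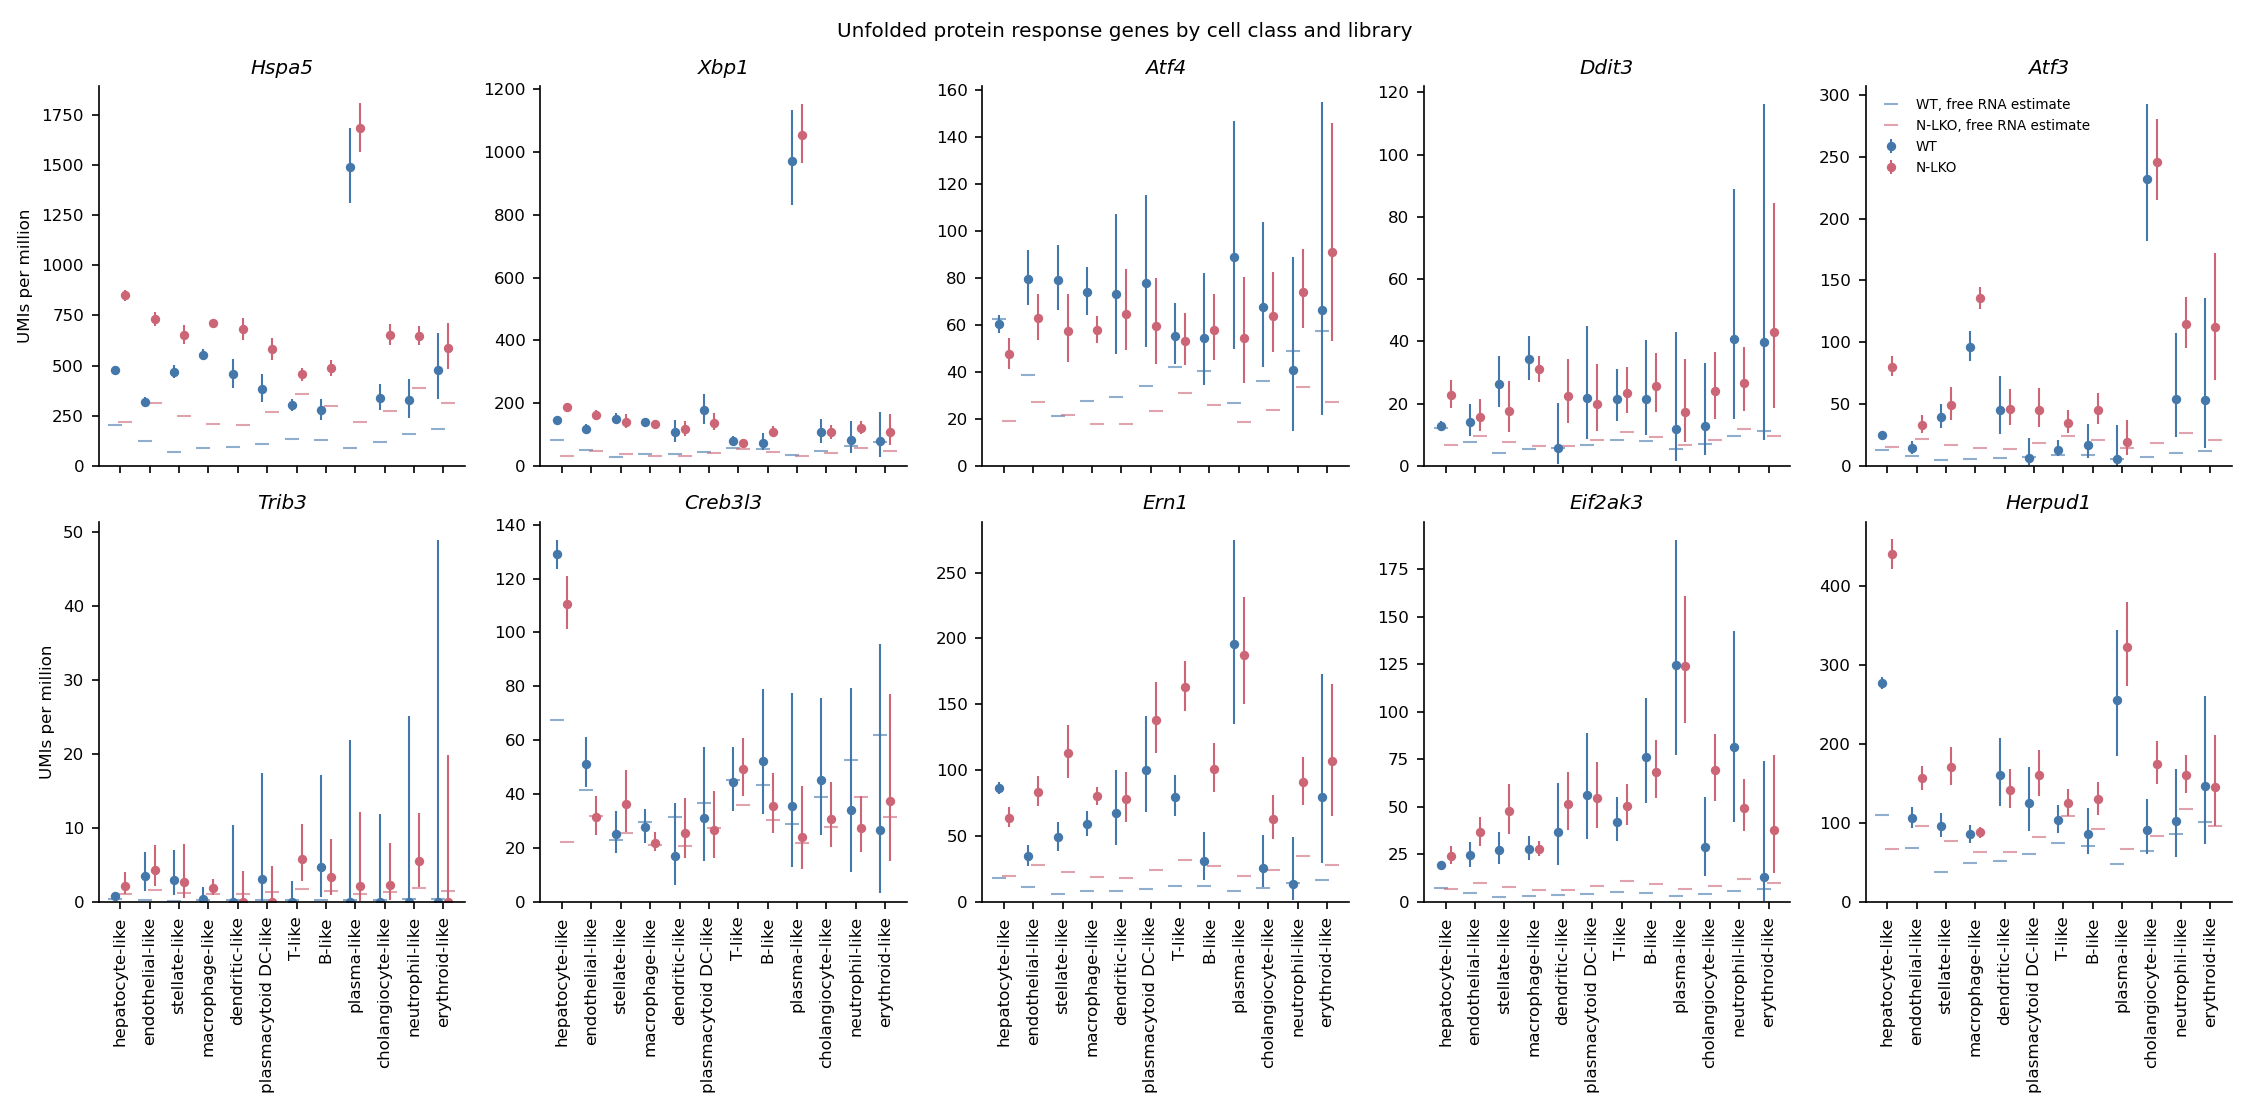
CPM of each gene in 12 cell classes of WT (blue) and N-LKO (red), with 95% exact Poisson intervals and each panel with its own axis from 0. Horizontal dashes give the level that free RNA alone was estimated to supply. Hspa5 and Xbp1 peak in plasma-like cells, Atf3 in cholangiocyte-like cells and Creb3l3 in hepatocyte-like cells, in both libraries.

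Outside hepatocyte-like cells, Hspa5 was called higher in N-LKO in 4 classes, but with free RNA subtracted only in endothelial-like cells. Its level there (1863 WT and 1937 N-LKO cells) was 318 CPM in WT against 731 CPM in N-LKO (log2 ratio 1.20, 1.08 to 1.33), and it remained at 1.12 after subtraction of free RNA. Ern1 stood at 34.6 and 83.2 CPM (1.26, 0.89 to 1.65) and Atf3 at 14.1 and 33.0 CPM (1.21, 0.63 to 1.85). Creb3l3 was lower, at 51.3 and 31.4 CPM (−0.71, −1.13 to −0.29), beside free RNA estimates of 41.6 and 31.7 CPM. Thus 3 of 9 expressed members were higher and 1 lower in this class, where 13.0% of expressed genes were higher and 13.7% lower. With free RNA subtracted Hspa5 and Ern1 stayed called, Atf3 (0.91, −0.02 to 1.96) and Creb3l3 did not, and at most 10% mitochondrial UMIs also ended the call of Atf3 (0.20). The mitochondrial share of the class was 14.4% in WT and 19.9% in N-LKO, and its summed hepatocyte markers stood at 16354 and 10209 CPM, and the part of either in these ratios was not tested. Albumin-Cre is not known to act in these cells.

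In hepatic stellate-like cells (906 and 634), the collagen-producing cells of the liver, 3 members were higher and 0 lower, against 11.7% and 14.2% of expressed genes. Ern1 went from 48.8 to 113 CPM (1.21, 0.80 to 1.63), Herpud1 from 95.9 to 170.3 CPM (0.83, 0.52 to 1.14) and Eif2ak3 from 27.4 to 47.7 CPM (0.80, 0.20 to 1.40). Hspa5 stood at 469 and 654 CPM (0.48, 0.33 to 0.63), which is under 1.5-fold. None of these calls was made with at most 10% mitochondrial UMIs, which left 64 such cells in N-LKO. With free RNA subtracted Ern1, Herpud1 and Eif2ak3 kept their calls, and Creb3l3 was called higher (2.40, 0.77 to 4.70).

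In macrophage-like cells (1846 and 4294) 0 of 9 members were higher and 0 lower, against 9.25% and 12.8% of expressed genes. Hspa5 stood at 554 and 712 CPM (0.36, 0.28 to 0.44), Atf3 at 96.4 and 136 CPM (0.49, 0.30 to 0.69) and Ern1 at 58.9 and 80.02 CPM (0.44, 0.19 to 0.70), each above 0 beyond counting error but under 1.5-fold. With free RNA subtracted the intervals of Hspa5 (0.07, −0.03 to 0.16) and Ern1 (0.22, −0.05 to 0.51) included 0. That of Atf3 did not (0.37, 0.17 to 0.58), and Herpud1 was called lower (−0.65, −1.01 to −0.28). Atf3 and Ern1 were called higher with at most 10% mitochondrial UMIs, and Atf3 also with mitochondrial and the 50 top genes left out of the CPM. In dendritic-like cells (215 and 487) 0 members were called either way, against 6.1% higher and 6.1% lower among expressed genes. Hspa5 stood there at 458 and 681 CPM (0.57, 0.32 to 0.83), just under 1.5-fold. It was called higher at 500 UMIs, at the 10% mitochondrial limit, with doublets kept and at a resolution of 0.6. The same held with mitochondrial and the 50 top genes left out of the CPM and with cells weighted equally, but not with free RNA subtracted (0.29). Ddit3 was called higher at the 10% limit and with cells weighted equally, and Atf4 lower with no mitochondrial limit and with doublets kept. When the monocyte-gene clusters were kept in this class (955 and 2336 cells), Hspa5 was called higher at 0.59, and in endothelial-like cells (1942 and 2462) the same 4 calls were made. In plasmacytoid dendritic-like cells (229 and 502) 2 members were higher and 0 lower, against 6.12% and 7.33%. These were Hspa5, at 384 and 582 CPM (0.60, 0.31 to 0.90), and Atf3, from 2 UMIs in WT to 34 in N-LKO (2.55, 0.89 to 5.96). Neither was called with free RNA subtracted, where Hspa5 stood at 0.16. Atf3 was not called at 500 UMIs (0.98), nor Hspa5 with no mitochondrial limit (0.56) or with doublets kept (0.57).

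In lymphoid classes the direction was the same for Hspa5, Atf3 and Ern1. In T-like cells (1028 and 1222) 4 of 10 expressed members were higher and 0 lower, against 18.9% and 14.0% of expressed genes. Ern1 stood at 79.7 and 163 CPM (1.03, 0.70 to 1.37), Atf3 at 13.04 and 34.9 CPM (1.39, 0.63 to 2.29) and Hspa5 at 304 and 456 CPM (0.59, 0.41 to 0.76). Trib3 had 0 UMIs in WT and 10 in N-LKO, at least 2.49-fold higher than a floor of 3 counts in WT (2.30 CPM). It passed the limit of 5 CPM through N-LKO alone (5.72 CPM), so its call carries no weight and no direction is read from it. Trib3 was not called with at least 500 UMIs per barcode or with doublets kept. Free RNA was estimated to supply 356 of the 456 CPM of Hspa5 in N-LKO T-like cells, and after its subtraction Hspa5 reversed to −0.76 and was called lower, as was Herpud1 (−0.89). Of the 4 genes called higher only Ern1 still was, and Atf3 stood at 1.21 with an interval that included 0. In B-like cells (319 and 778) 4 of 9 were higher and 0 lower, against 9.8% and 9.36%. Ern1 stood at 30.9 and 101 CPM (1.66, 0.88 to 2.66), Atf3 at 16.6 and 45.4 CPM (1.36, 0.31 to 2.83), Hspa5 at 278 and 486 CPM (0.80, 0.52 to 1.11) and Herpud1 at 85.5 and 129.6 CPM (0.59, 0.07 to 1.17). With free RNA subtracted Hspa5 (0.19) and Atf3 (1.30, −0.12 to 3.62) lost the call, Ern1 and Herpud1 kept it and Xbp1 gained it (1.42).

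Over the 8 classes, the interval of Hspa5 lay above 0 in 8 and the gene was called higher in 5, but with free RNA subtracted it was called higher in 1 (endothelial-like) and lower in 1 (T-like). Atf3 lay above 0 beyond counting error in 6 classes and was called in 5, and after subtraction in 1 (hepatocyte-like). Ern1 lay above 0 in 5, was called higher in 4 before and in 4 after subtraction, and lay below 0 in hepatocyte-like cells. Xbp1 and Atf4 were called in 0 classes, with log2 ratios between −0.37 and 0.54 for Xbp1 and between −0.46 and 0.06 for Atf4. The classes of a library share its free RNA and handling, so these counts are not independent.

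**Figure D4:**
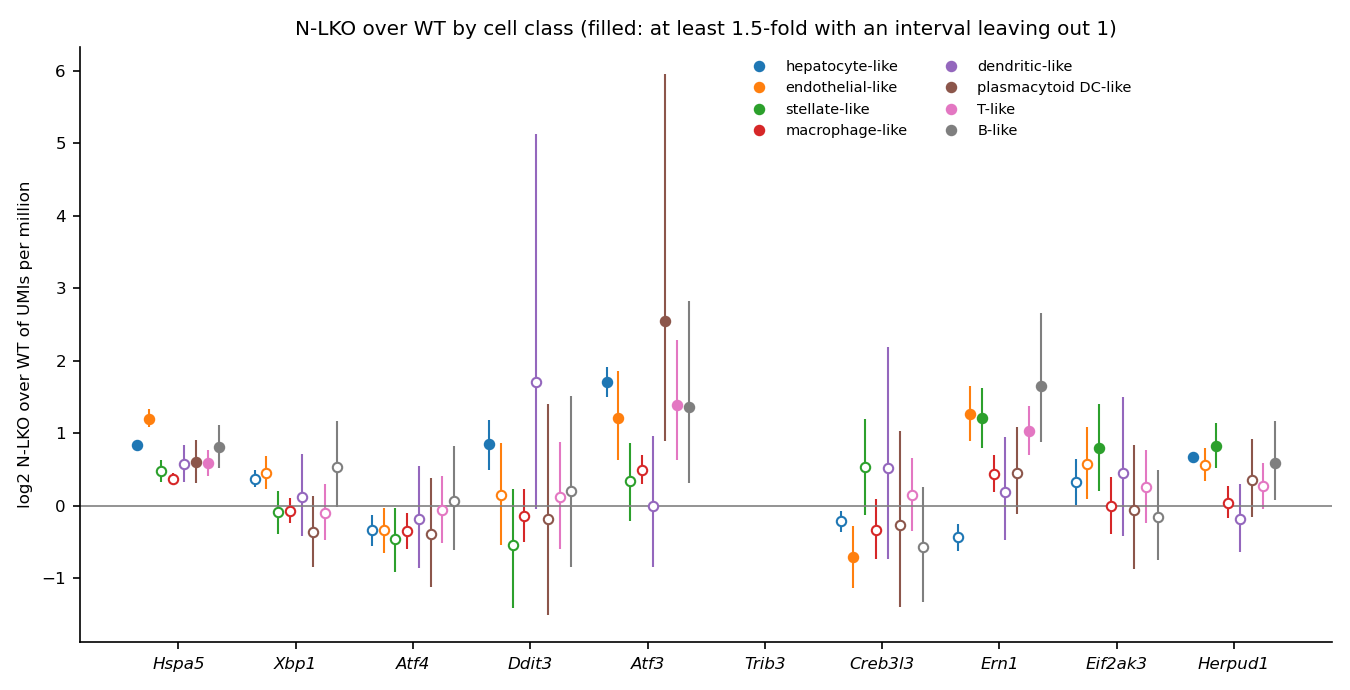
Log2 ratio of CPM, N-LKO over WT, of each gene in the 8 classes with at least 200 cells per library, with 95% exact counting intervals. Filled points passed the rule of 1.5-fold with an interval leaving out 1. Hspa5 lies above 0 in all 8 classes before subtraction of free RNA, Ern1 is negative in hepatocyte-like cells alone (−0.43), and genes under 5 CPM in both libraries or with no upper bound (Trib3) are not drawn.

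In the wider pathway, 7 lists of genes were counted in hepatocyte-like cells, where 13.5% of all expressed genes were higher. No difference between lists was tested. That share belongs to the main setting, and the counts below under other settings have no such share beside them. Of 18 ER chaperone and folding enzyme genes, 7 were higher and 0 lower, with a median log2 ratio of 0.38, but 2 were higher when the unnamed cluster was counted as hepatocyte-like. With free RNA subtracted, 4 were higher and 7 lower. Creld2 stood at 9.65 CPM in WT against 31.95 CPM in N-LKO (1.73), Sdf2l1 at 9.77 and 29.3 CPM (1.59), and Manf at 109 and 238 CPM (1.13). Hsp90b1, the ER paralog of the cytosolic chaperone HSP90, also passed the rule. Of 14 expressed genes of ER-associated degradation, 1 was higher and 0 lower, with a median of 0.05. That gene was Selenos, at 68.6 and 124 CPM (0.85), whereas Selenok (0.55) stayed under 1.5-fold. With free RNA subtracted, 2 genes of this list were higher and 8 lower.

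Of 10 expressed genes for sensors and their processing, 1 was higher and 0 lower, with a median of 0.21. Eif2s1, encoding eIF2 alpha, stood at 31.9 and 44.4 CPM (0.48), Rtcb, the ligase that joins spliced Xbp1, at 23.1 and 26.9 CPM (0.22), and Mbtps1, a protease that cleaves ATF6, at 22.6 and 25.6 CPM (0.19). Of 14 expressed targets of ATF4 and the integrated stress response, 7 were higher and 1 lower, with a median of 0.58. The largest differences among those with at least 20 CPM were Cth, a cysteine-producing enzyme, lower at 429 and 167 CPM (−1.36), and Cebpb (1.03) and Gdf15 (0.89), both higher. In WT the 111 CPM of Cebpb lay close to its free RNA estimate of 103 CPM.

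Of 9 expressed CREB3L3 targets, 5 were higher and 0 lower, with a median of 1.00, while Creb3l3 itself stood at −0.22. Apcs, an acute-phase protein gene, stood at 38.7 and 141 CPM (1.87), Cidec, a lipid droplet protein gene, at 17.03 and 45.5 CPM (1.42), and Apoa4 at 353 and 910 CPM (1.37). This was not particular to hepatocyte-like cells. The median of the list was 1.51 in hepatic stellate-like, 1.27 in B-like, 1.26 in T-like, 1.10 in plasmacytoid dendritic-like and 1.00 in endothelial-like cells. It was 0.11 in macrophage-like and 0.05 in dendritic-like cells. Apoa4 and Cidec were called higher in every class compared. Of 6 ER stress apoptosis genes expressed in hepatocyte-like cells, 5 were higher and 1 lower, with a median of 0.89. Bax stood at 18.8 and 49.2 CPM (1.39). In WT neither Bax nor Cidec stood above its free RNA estimate, 21.9 CPM for Bax and 17.3 CPM for Cidec. With free RNA subtracted 1 of the apoptosis genes was higher, and 2 at the N-LKO share in both libraries.

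Genes of the immediate early and heat shock responses, known to be induced while tissue is dissociated, differed as well. Of 16 expressed genes, 8 were higher and 1 lower, with a median of 0.59. Btg2 stood at 49.3 and 138 CPM (1.48), Fos at 42.1 and 87.3 CPM (1.05) and Hsp90aa1 at 198 and 403 CPM (1.03). In WT the level of Hsp90aa1 was no higher than its free RNA estimate of 207 CPM. The summed level of this list was 1114 CPM in WT against 1625 CPM in N-LKO hepatocyte-like cells, and in stellate-like cells 2313 and 1424 CPM. Its part in the ratios of Atf3, itself an immediate early gene, was not tested.

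**Figure D5:**
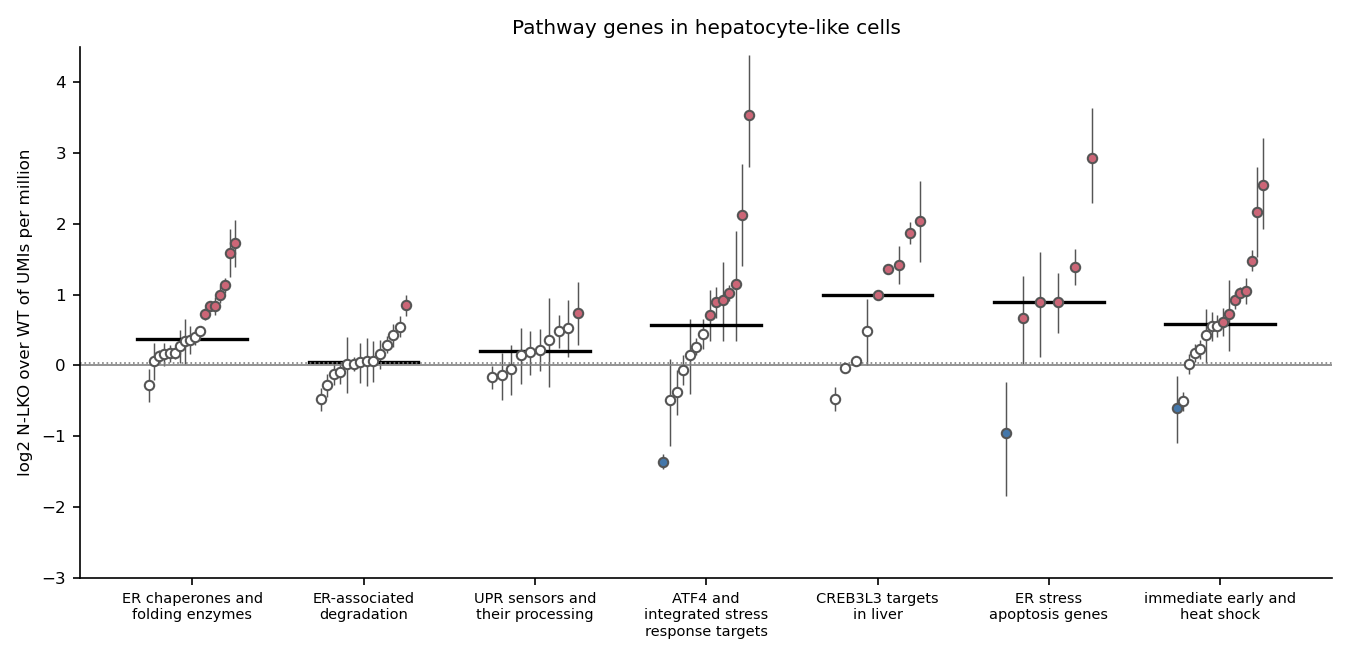
Log2 ratio of CPM, N-LKO over WT, in hepatocyte-like cells for the expressed genes of 7 lists, with 95% exact counting intervals. Red points passed the rule upward and blue points downward, open points did not pass, and each bar is the median of its list. The median is 0.38 for ER chaperones, 0.05 for ER-associated degradation and 1.00 for CREB3L3 targets, against 0.03 for all expressed genes (dotted line).

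Over the 24 sums of class and library, the genes whose levels were most like those of Hspa5 were Pdia6 (Pearson's r = 0.93 of log2 CPM + 1), Calr (0.92) and Hsp90b1 (0.91). For Xbp1 they were Hsp90b1 (0.95), Manf (0.94) and Derl3 (0.94). Atf3 was most like Egr1 (0.88), Junb (0.88) and Pdgfc (0.85), of which Egr1 and Junb are immediate early genes, while its r with Hspa5 was 0.0070. Creb3l3 was most like Pgrmc1 (0.90), Ces1f (0.88) and Ugdh (0.84). Eif2ak3 was most like Dgkd (0.87), Atp2a3 (0.87) and Tmem154 (0.85), and Ern1 was most like Scfd2 (0.80), Atf6 (0.78) and Snd1 (0.78). For Ddit3 the leading genes were Ms4a8a (0.82), Cx3cr1 (0.82) and Siglece (0.81), for Herpud1 Dnajc3 (0.73), Pgm3 (0.72) and Lman1 (0.70), and for Atf4 Stau1 (0.71), Golph3 (0.70) and 2210016L21Rik (0.70). Trib3, near detection, gave Bmper (0.75), Angpt2 (0.72) and Zdhhc1 (0.71). Among the members, Hspa5 and Xbp1 were the most alike (0.83) and Atf3 and Xbp1 the least (−0.38). These values describe sums that share a library, its depth and its free RNA.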

How the data were processed

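Liver cells of 1 WT and 1 N-LKO library were profiled by 10x Genomics 3′ single-cell RNA-seq. For each barcode and gene the authors deposited a whole number of UMIs (raw counts), made with Cell Ranger 7.1.0 per the file headers, without normalization. The submitters' processing notes name mm9 and Seurat. Of 32285 gene IDs, 32158 (99.6%) matched GENCODE M21 (GRCm38), so names and coordinates are given on that build. Whether intron reads were counted was not given in the sources used here.

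Barcodes were kept with at least 1000 UMIs, 400 genes and at most 30% mitochondrial UMIs. Scrublet (scanpy 1.11.5, expected rate 10%) scores over 0.25 removed 8.55% of WT and 10.6% of N-LKO barcodes as doublets. After log transformation at 10000 UMIs per cell, 2000 variable genes without the members and pathway genes gave 30 principal components, a shared neighbor graph over 20 neighbors and clusters (leidenalg 0.10.2, resolution 0.3). The 2 libraries were clustered together without integration. A cluster was named from 14 marker lists at a score of at least 0.2 with 3 markers raised 2-fold. Where an unrelated type scored over 0.6 as much, the cluster was set aside as mixed. Leading genes (10 per cluster) that went against a name left the cluster unnamed. These naming thresholds were set after the clusters had been seen. The rule that left out clusters led by monocyte genes was added after the members' values by class had been seen. Classes were rebuilt here, so a difference from the study may come from the names.

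UMIs were summed per class and library and scaled to CPM, with 0.5 UMI added to each sum for log2 ratios. Levels carry exact Poisson, ratios exact conditional binomial and shares Clopper-Pearson intervals at 95%. PCR duplicates are removed by the UMIs. With 1 library per group no p-values were computed. The ratio code was checked on simulated counts. Free RNA was taken from barcodes under 500 UMIs, and its share of a class from markers that the class should lack. The deposited barcodes began at 326 UMIs in WT and 377 UMIs in N-LKO, so emptier ones could not be used. The members and gene lists were chosen with earlier results of these data known. The genes named are the members, Nus1, from each pathway list the 3 genes with the largest log2 ratio among those with at least 20 CPM and, for each member, the 3 genes most correlated with it among those with at least 20 CPM. Hsp90b1 among the chaperones and the list of genes at 0 were named outside this rule after their values were seen, and some genes that the rule or that list would name are not reported here. Alternatives concerned the filters, doublets, resolution, free RNA, scaling, cell weighting, cluster membership, added UMIs and call limits. Intervals were computed with scipy 1.17.1 under Python 3.11.15, with numpy 2.4.6, igraph 0.11.9, pandas 2.3.3 and matplotlib 3.10.9.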

Additional observations from a re-analysis of the deposited data

Results flagged for a closer look

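Ern1 moved in opposite directions in different classes. Its log2 ratio, N-LKO over WT, was −0.43 in hepatocyte-like cells, and 1.26 in endothelial-like, 1.21 in hepatic stellate-like, 0.44 in macrophage-like, 1.03 in T-like and 1.66 in B-like cells. Each interval left out 0, with 1 library per group the difference between the classes was not tested, and the negative value turned positive when the unnamed cluster was counted as hepatocyte-like.

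Barcodes under 500 UMIs belong to no class and enter the comparisons of classes only as the free RNA that is subtracted. Among members with at least 5 CPM in 1 library, Hspa5, Atf3, Ern1 and Eif2ak3 stood at least 1.5-fold higher there in N-LKO than in WT. The share of all genes past that limit is not given here, so how unusual this is cannot be told. The log2 ratios there were 1.33 for Hspa5, 1.41 for Atf3, 1.32 for Ern1 and 1.09 for Eif2ak3. For Trib3 the value was 2.54, from 4 UMIs in WT and 19 in N-LKO, under 5 CPM in both, and no direction is read from it.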

How the results depend on the processing

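In hepatocyte-like cells the same 4 members were called higher with doublets kept, at a resolution of 0.6, with either rescaling, with cells weighted equally, after removal of the Malat1-rich and Malat1-poor clusters and with 2 UMIs added. With at least 500 UMIs per barcode, with no mitochondrial limit or with the unnamed cluster counted as hepatocyte-like, the 4 called were Ddit3, Atf3, Ern1 and Eif2ak3. The class then held 5834 N-LKO cells, 5710 N-LKO cells and 2432 more N-LKO cells, respectively. In the same order, Ern1 stood at 1.20, 0.99 and 1.04 and Hspa5 at 0.53, 0.39 and 0.39. With at most 10% mitochondrial UMIs the median of the members was 0.17, Hspa5, Atf3 and Ern1 were called higher, and Herpud1 reversed to −0.11. Eif2ak3 in stellate-like cells reversed to −0.18. With free RNA subtracted the median reversed to −0.067, Hspa5 to −0.043 and Herpud1 to −0.090 in hepatocyte-like cells and Hspa5 to −0.76 in T-like cells, 2 members were higher and 3 lower. At the N-LKO share in both libraries 1 was lower (Ern1). At 2-fold, 1 was higher (Atf3), and with no filter on low values Trib3 made 5. The share of all expressed genes called under each alternative is not given here, so these counts are not read as a result about the members. Apart from the construction of each alternative, the cause was not tested.

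Counts of higher genes in the hepatocyte-like pathway lists moved as follows. For ER chaperones (7) they were 3 at 500 UMIs, 2 with no mitochondrial limit, 4 with free RNA subtracted, 2 with the unnamed cluster and 4 at 2-fold. For ER-associated degradation (1) they were 2 at 500 UMIs, 3 at the 10% mitochondrial limit, 2 under both free RNA subtractions and with no filter, and 0 at 2-fold. For sensors (1) they were 3 at 500 UMIs, with no mitochondrial limit, with free RNA subtracted and with the unnamed cluster, 2 at the 10% limit, with doublets kept, at the N-LKO share of free RNA and without the Malat1 clusters, and 0 at 2-fold. For ATF4 targets (7) they were 4 at the 10% limit and at 2-fold. For apoptosis genes (5) they were 3 with no mitochondrial limit, 1 with free RNA subtracted, 2 at the N-LKO share and 2 at 2-fold. For immediate early genes (8) they were 5 at 500 UMIs and at 2-fold, 3 at the 10% limit, and 4 with no mitochondrial limit or the unnamed cluster. Counts of lower genes moved as well. With free RNA subtracted they were 7 for ER chaperones (0) and 8 for ER-associated degradation (0), more than the 4 and 2 higher. They were then 2 for sensors (0), 3 for ATF4 targets (1) and 2 for CREB3L3 targets (0). Under every alternative at least 4 ATF4 targets and 4 CREB3L3 targets were higher. At the 10% limit 3 immediate early genes were lower (1). The share of all expressed genes called under these alternatives is not given here, so these counts have no background beside them. The alternatives on the unnamed cluster, the monocyte-gene clusters and the N-LKO share of free RNA were chosen after seeing the data. No paired analysis was possible because each group has 1 library, and for the same reason no replicate could be left out. At these depths, levels under 5 CPM, such as those of Trib3, could not be compared.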
